A study of Mus musculus with 9 samples.

Results

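The colony-stimulating factors and their receptors were described in IMQ-treated mouse peritoneal macrophages that lacked SHP2 or had it inhibited. The 8 genes were taken by name. They are the ligand genes Csf1 (ENSMUSG00000014599), Csf2 (ENSMUSG00000018916) and Csf3 (ENSMUSG00000038067) and the receptor genes Csf1r (ENSMUSG00000024621), Csf2ra (ENSMUSG00000059326), Csf2rb (ENSMUSG00000071713), Csf2rb2 (ENSMUSG00000071714) and Csf3r (ENSMUSG00000028859). Each was found by its Ensembl identifier among the 54059 genes of the FPKM table, and all 8 were among the 11450 genes with a mean of at least 1 FPKM (fragments per kilobase of transcript, scaled to library size) over the 9 libraries.

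Colony-stimulating factors are secreted glycoproteins that keep myeloid cells alive and direct their growth and maturation. Csf1 encodes M-CSF, which binds the receptor tyrosine kinase CSF1R and on which most tissue macrophages depend, whereas Csf2 (GM-CSF) and Csf3 (G-CSF) are induced in inflammation and act through cytokine receptors without kinase activity of their own, coupled to JAK kinases and STAT factors. The GM-CSF receptor joins a specific alpha chain (Csf2ra) to a beta chain (Csf2rb) that the IL-3 and IL-5 receptors share, and mice have a further beta chain, Csf2rb2, that serves IL-3. SHP2, encoded by Ptpn11, is a tyrosine phosphatase recruited to these receptors and to their adaptors, where it takes part in Ras and ERK signaling.

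RNA was sequenced from 3 groups of 3 libraries. All mice were of the C57BL/6 strain and 8 weeks old by the labels, and all cells were adherent peritoneal cells collected 3 days after an injection of starch broth. The first group held macrophages of wild-type mice and the next those of M-Shp2-/- mice, whose genotype is labelled SHP2lyz2-/- and whose floxed Shp2 gene is deleted by Lyz2-cre in monocytes, mature macrophages and granulocytes. The SHP099 group held wild-type macrophages pretreated for 2 h with 10 µM SHP099, an allosteric SHP2 inhibitor. By the study's methods and legends and not by the labels, all 3 groups received IMQ, a TLR7 agonist, for 4 h. The values are therefore differences among IMQ-treated cells, and no unstimulated or vehicle-treated library was analysed here. The legend of the SHP099 experiment gives an IMQ dose of 10 µg/ml, and the RNA-seq methods, which cover wild-type and M-Shp2-/- cells, give none. Nothing in the labels says that the libraries of a group came from separate mice, so p values measure only the spread between these samples, which may be technical. The libraries held 39843105 to 50981200 reads, as recovered from the steps of the FPKM values.

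Ptpn11, the targeted gene, was at 45.8, 44.0 and 40.0 FPKM in the wild-type libraries and at 18.6, 17.8 and 18.9 FPKM in the M-Shp2-/- libraries, 42.5% of the wild-type mean. In the SHP099 libraries, which carry an intact gene, it was at 43.0, 42.1 and 39.6 FPKM. The macrophage markers were present in every library, with Cd68 between 1211 and 1739.5 FPKM and Adgre1 between 172 and 349 FPKM. Lyz2, the most abundant of these 8 markers, was at 7440.3, 10228 and 7951 FPKM in wild type, 4863, 4743 and 5407 in M-Shp2-/-, and 9348, 10279.9 and 10715 in SHP099. Granulocytes also use G-CSF and GM-CSF, and 5 of the 9 neutrophil markers were below 1 FPKM in every library, with Ly6g at or below 0.0362 FPKM and Cxcr2 at or below 0.0352 FPKM. The 3 neutrophil markers tested were S100a8, the most abundant, at 34.5 to 95.4 FPKM, Mmp8 at 2.80 to 10.4 FPKM and Camp at 2.92 to 4.95 FPKM, and S100a9 reached 1.11 FPKM. All 5 eosinophil markers were below 1 FPKM, with Epx at or below 0.0234 FPKM.

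The libraries of a group were not equally alike. M-Shp2-/- replicate 3 stood apart, with a correlation of log2 values of 0.967 and 0.954 with replicates 1 and 2 of its group, which correlated at 0.992 with each other. Wild-type replicate 3 correlated at 0.976 and 0.974 with the other wild-type libraries, and those at 0.984. Fibroblast RNA also varied: the summed FPKM of 6 fibroblast markers was 63.8, 303 and 39.8 in wild type, 135, 51.4 and 586 in M-Shp2-/-, and 361, 137 and 101 in SHP099. Col1a1 was the most abundant of the 6 and reached 206 FPKM in M-Shp2-/- replicate 3, while Lum stayed at or below 0.251 FPKM. Results that rest on M-Shp2-/- replicate 3 are given with and without it.

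**Figure D1:**
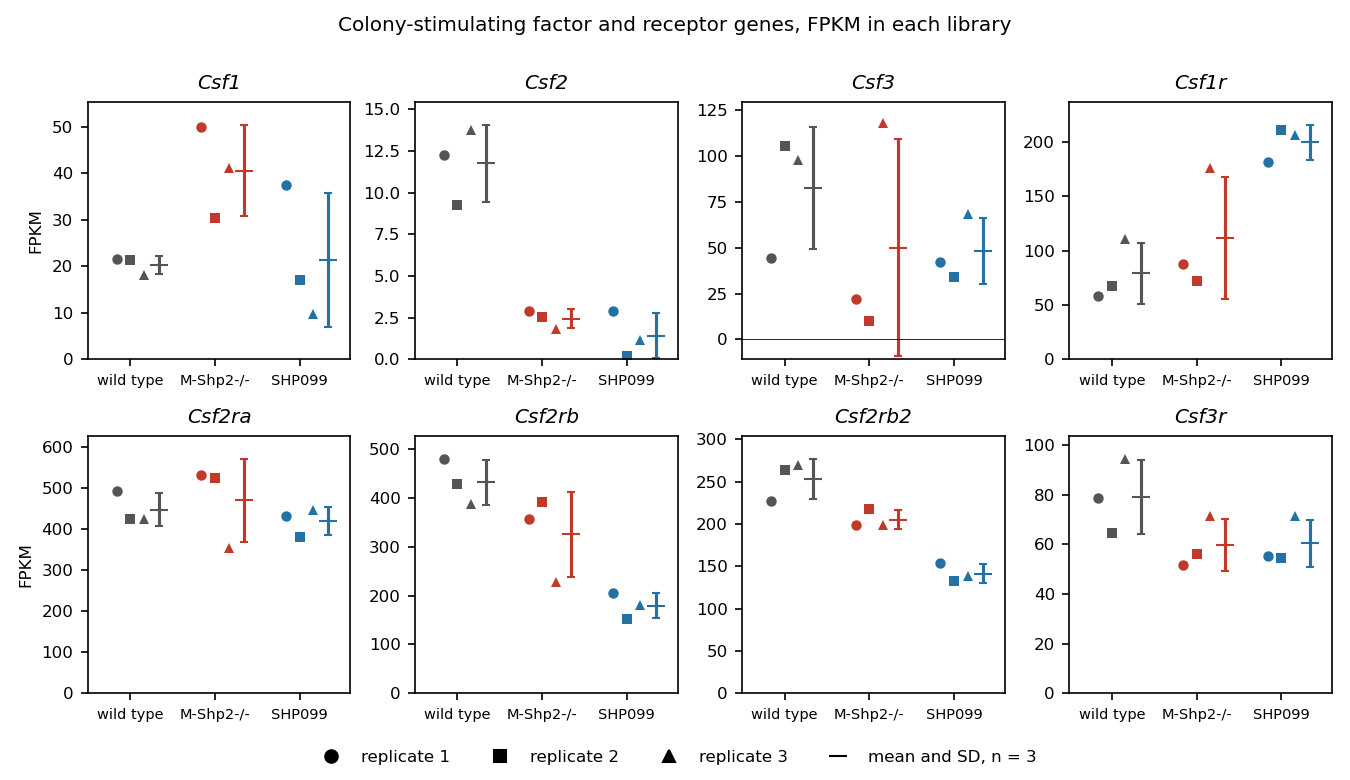
FPKM of the 8 genes (vertical axes, linear) in the 3 libraries of each group (horizontal axis), with replicates as circle, square and triangle and the mean with SD (n = 3) beside them. Csf2 was at 9.24 to 13.8 FPKM in wild type and at most 2.92 FPKM in the other libraries, and Csf1r was at 181 to 211 FPKM with SHP099.

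The 3 ligand genes lie apart from each other in GRCm38 and share AU-rich letters in their 3′ UTRs. Csf1 is on chromosome 3 (chr3:107741048-107760469, minus strand), Csf2 on chromosome 11 (chr11:54247271-54249667, minus strand) and Csf3 farther along the same chromosome (chr11:98701263-98703629, plus strand). The pentamer ATTTA, part of the AU-rich elements through which short-lived cytokine mRNAs are bound by decay proteins, occurred 9 times in the 317 bases of the Csf2 3′ UTR, 6 times in the 669 bases of Csf3 and 4 times in the 2111 bases of the Csf1 transcript searched. The stretches around the longest run in each 3′ UTR are shown so that the run of Csf2 can be set beside those of the other ligands, at chr3:107742911-107742937 (minus strand), chr11:54247326-54247352 (minus strand) and chr11:98702981-98703007 (plus strand), with the run in capitals.
Csf1: atactgccactATTTAttgtgggccct
Csf2: aatATTTATTTATTTATTTATTTAttt
Csf3: ccagatagtttATTTAtctctatttaa
Csf2 held 5 overlapping pentamers in its run, and Csf1 and Csf3 held 1. A run of at least 3 was found in 1.13% of 20990 protein-coding genes and a run of at least 2 in 6.56%. No pentamer was found in the 3′ UTRs of Csf2ra, Csf2rb, Csf2rb2 and Csf3r, and Csf1r held 3.

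Of the receptor genes, Csf3r is on chromosome 4 (chr4:126024550-126044440, plus strand) and Csf2ra is on chromosome 19 (chr19:61223957-61228429, minus strand). Csf2rb (chr15:78325752-78353847, plus strand) and Csf2rb2 (chr15:78282507-78305721, minus strand) are neighbours in opposite orientation and close copies. Their coding sequences were identical at 95.4% of 2626 aligned bases, and 18.4% of all 50-base windows of Csf2rb occurred unchanged in Csf2rb2. For windows of 100 and 150 bases the shares were 6.96% and 3.47%. Reads from shared windows can be given to either gene or to neither, so the levels of the pair are uncertain, and their summed FPKM was also fitted. The 3′ end of Csf1r overlaps Hmgxb3 on the opposite strand, which was at 10.6 to 12.4 FPKM, and Csf2 overlaps Gm12223, which had 1 read in 1 library and none in the others. The strand of counting is not given in the sources used here, so reads of the overlapping parts cannot be told apart.

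In wild-type macrophages the chains of the GM-CSF receptor were by far the most abundant of the family. Csf2ra (448 ± 39.7 FPKM, SD, n = 3) and Csf2rb (431 ± 45.6 FPKM) came first and overlapped, followed without overlap by Csf2rb2 (253 ± 23.2 FPKM). Csf3 (82.7 ± 33.2 FPKM), Csf3r (79.1 ± 14.9 FPKM) and Csf1r (78.9 ± 27.9 FPKM) formed a middle group whose libraries overlapped. Csf1 (20.3 ± 1.93 FPKM) and then Csf2 (11.8 ± 2.30 FPKM) were lowest, each below its upper neighbour in 3 of 3 libraries with no overlap. The order differed in the other groups. In M-Shp2-/- it was Csf2ra (470.5 ± 100.5 FPKM), Csf2rb (325 ± 86.5), Csf2rb2 (205 ± 11.1), Csf1r (112 ± 56.2), Csf3r (59.7 ± 10.4), Csf3 (50.1 ± 59.0), Csf1 (40.6 ± 9.83) and Csf2 (2.44 ± 0.552). There Csf2ra overlapped Csf2rb, and Csf3 overlapped Csf1r, Csf3r and Csf1. In SHP099, Csf1r (199 ± 16.0 FPKM) stood next to Csf2ra (421 ± 34.4) and overlapped Csf2rb (179.6 ± 26.1), which overlapped Csf2rb2 (141 ± 11.2). Csf3r (60.3 ± 9.54 FPKM), Csf3 (48.2 ± 17.9) and Csf1 (21.4 ± 14.4) followed with overlap, and Csf2 was last at 1.41 ± 1.35 FPKM.

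M-Shp2-/- against wild type asks what loss of myeloid SHP2 changed in IMQ-treated macrophages. The GM-CSF gene Csf2 was the 1 member that passed the test, at 20.7% of the wild-type mean. Csf1 libraries lay above all wild-type libraries and Csf2rb2 libraries below them, without passing the test. The remaining receptor genes and Csf3 overlapped between the groups. A gene was called at a limma adjusted p of at most 0.05 over the 11450 genes, and fold changes are differences of log2(FPKM + 1), which understates changes of low genes such as Csf2.

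Csf2, the gene of GM-CSF, was at 12.3, 9.24 and 13.8 FPKM in wild type (436, 377 and 468 reads) and at 2.92, 2.55 and 1.84 FPKM in M-Shp2-/- (101, 84 and 67 reads). All 3 M-Shp2-/- libraries were below the lowest wild-type library by a wide gap. The log2 fold change was -1.89 ± 0.20 (SE), with a 95% confidence interval of -2.36 to -1.42 and an adjusted p of 0.0442. Fewer cells that make Csf2 and less Csf2 RNA per cell cannot be told apart in bulk RNA, here and in the results that follow. The call was near the threshold: leaving out any 1 of the 6 libraries ended it, at log2 fold changes of -2.04 to -1.76 and adjusted p of 0.0743 to 0.258. Without M-Shp2-/- replicate 3 the values were -1.76 and 0.0743. The call was also lost in 7 of 11 other settings, among them both other pseudocounts, no filter and voom (adjusted p up to 0.214).

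Csf1, the gene of M-CSF, was at 21.6, 21.3 and 18.1 FPKM in wild type and at 50.04, 30.4 and 41.2 FPKM in M-Shp2-/-. The groups did not overlap, with a mean at 199.6% of wild type, but the adjusted p was 0.388 (log2 fold change 0.94 ± 0.19), and without M-Shp2-/- replicate 3 it was 0.223 (0.91 ± 0.22). Csf3, the gene of G-CSF, was at 44.6, 106 and 98.0 FPKM in wild type and at 21.9, 10.3 and 118 FPKM in M-Shp2-/-. The low values were those of M-Shp2-/- replicates 1 and 2, while replicate 3 was above every wild-type library. The log2 fold change was -1.32 ± 0.84 (adjusted p 0.526) with replicate 3 and -2.28 ± 0.46 (adjusted p 0.214) without it.

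Among the receptor genes none passed the test by limma, and voom on recovered reads also called none. Of the 5, 1 had an unadjusted limma p under 0.05, beside 1204 of 11450 genes. That 1 was Csf2rb2, the IL-3 beta chain, at 227, 264 and 269.6 FPKM in wild type and 199, 218 and 198 FPKM in M-Shp2-/-. The groups did not overlap, and the log2 fold change was -0.30 ± 0.10 (adjusted p 0.462). Csf2rb, the shared beta chain, was at 479, 427 and 388 FPKM in wild type and 356, 391 and 227 FPKM in M-Shp2-/-, where replicate 2 reached into the wild-type range and replicate 3 was lowest (-0.44 ± 0.21, adjusted p 0.479). Csf1r, the M-CSF receptor, was at 58.2, 67.8 and 111 FPKM in wild type and 87.4, 71.8 and 176 FPKM in M-Shp2-/-, so that the third replicate was highest in both groups (0.44 ± 0.38, adjusted p 0.592). Csf3r, the G-CSF receptor, had 1 M-Shp2-/- library within the wild-type range (-0.40 ± 0.18, adjusted p 0.478), and Csf2ra, the GM-CSF alpha chain, ranged from 355 to 533 FPKM in M-Shp2-/- around the wild-type range of 425 to 494 FPKM (0.05 ± 0.18, adjusted p 0.897). With median-of-ratios scaling the sign of Csf2ra turned, to -0.11. Without M-Shp2-/- replicate 3 the log2 fold changes were 0.06 for Csf1r, 0.24 for Csf2ra, -0.20 for Csf2rb, -0.28 for Csf2rb2 and -0.53 for Csf3r, none of them called by limma.

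In all, 1 of the 8 members (12.5%) was called in M-Shp2-/- against wild type, beside 10 of all 11450 genes (0.0873%), each of them lower. The count over all genes was 2, 1 and 5 without wild-type replicates 1, 2 and 3 and 1, 1 and 8 without M-Shp2-/- replicates 1, 2 and 3. The stricter cut-offs used for the study were a log2 fold change of 1 or more either way with the adjusted p at or under 0.005. At these, no member was called by limma, beside 1 of all genes (0.00873%). An unadjusted limma p under 0.05 was found for 3 members, beside 1204 of 11450 genes. Voom called no member at 0.05, beside 9 of 11353 genes. Libraries did not overlap for 1 member that was higher, Csf1, beside 16.0% of all genes, and for 2 that were lower, Csf2 and Csf2rb2, beside 3.07% of all genes. The median log2 fold change of the 8 members was -0.35, and that of all genes 0.15. Median-of-ratios scaling brought the latter to 0.01, and relative to it Csf2 was at -2.02 and Csf1 at 0.79.

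SHP099 against wild type asks what inhibition of SHP2 before IMQ changed in macrophages with an intact gene. Csf2 and both beta chain genes fell, and Csf1r rose to 253% of the wild-type mean. Csf2 was at 12.0%, Csf2rb at 41.7% and Csf2rb2 at 55.8% of the wild-type mean. Csf1, Csf3, Csf2ra and Csf3r did not pass the test.

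Csf2 was at 2.88, 0.220 and 1.14 FPKM in the SHP099 libraries, from 101, 7 and 40 reads, against 9.24 to 13.8 FPKM in wild type. Every SHP099 library was below every wild-type library, and they also differed among themselves, with replicate 2 lowest. The log2 fold change was -2.54 ± 0.40 (95% confidence interval -3.48 to -1.61, adjusted p 0.0206). The adjusted p rose above the threshold without wild-type replicate 1 (-2.51, adjusted p 0.0576), SHP099 replicate 2 (-2.13, adjusted p 0.0590) or SHP099 replicate 3 (-2.54, adjusted p 0.0723). Csf1 was at 37.5, 17.0 and 9.77 FPKM with SHP099, spanning the wild-type values on both sides (-0.12 ± 0.41, adjusted p 0.879). Csf3 was at 42.4, 34.0 and 68.3 FPKM, where replicate 3 lay within the wild-type range (-0.73 ± 0.37, adjusted p 0.259).

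Csf2rb was at 205, 153 and 181 FPKM with SHP099 against 388 to 479 FPKM in wild type, and the groups were far apart. The log2 fold change was -1.26 ± 0.13 (95% confidence interval -1.57 to -0.96, adjusted p 0.00769), and the call held with any 1 of the 6 libraries left out, at -1.36 to -1.15 and adjusted p of 0.00854 to 0.0438. Csf2rb2 was at 154, 132 and 138 FPKM against 227 to 269.6 FPKM in wild type, again with no overlap. Its log2 fold change was -0.84 ± 0.10 (adjusted p 0.0109), and the call was lost without SHP099 replicate 2 (-0.79, adjusted p 0.0668) or replicate 3 (-0.82, adjusted p 0.0502). The summed FPKM of the pair gave -1.10 ± 0.10 (adjusted p 0.00590). Csf2ra, the partner of Csf2rb in the GM-CSF receptor, was at 432, 382 and 448 FPKM with SHP099, within or below the wild-type range of 425 to 494 FPKM (-0.09 ± 0.10, 95% confidence interval -0.33 to 0.15, adjusted p 0.615).

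The promoter of Csf2rb2 is printed because the gene fell together with its neighbour. Of the 8 members, 5 had an entry in the promoter table of RefSeq (GRCm38.p6), and Csf3, Csf1r and Csf2rb had none. The 250 bases before its start (chr15:78305722-78305971, minus strand) are given in the direction of transcription, with motif matches in capitals.
Csf2rb2 promoter: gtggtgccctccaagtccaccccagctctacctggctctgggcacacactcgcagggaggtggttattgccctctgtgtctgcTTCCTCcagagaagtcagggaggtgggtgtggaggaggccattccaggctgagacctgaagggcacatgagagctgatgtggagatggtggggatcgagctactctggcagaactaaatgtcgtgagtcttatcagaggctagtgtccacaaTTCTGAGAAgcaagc
Searched on both strands were TTCNNNGAA (STAT), GAGGAA (PU.1 and other ETS factors), TGANTCA (AP-1) and an NF-kB consensus, and the latter pair had no match. TTCTGAGAA, a match to the STAT letters, began 15 bases before the start, and TTCCTC, the reverse complement of GAGGAA, began 167 bases before it. Of 32851 promoter windows of this length, 7.02% held the STAT letters, 23.3% the ETS letters, 17.6% the NF-kB letters and 6.75% the AP-1 letters. Csf2, which also fell, had no match to any of these motifs. Csf1, Csf2ra and Csf3r, which were not called, held the NF-kB letters, the ETS letters or both, and not the STAT letters. A match is a description of letters and not of a bound site.

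Csf1r was at 181, 211 and 206 FPKM with SHP099, against 58.2, 67.8 and 111 FPKM in wild type. All SHP099 libraries were above wild-type replicate 3, itself above the other wild-type libraries. The log2 fold change was 1.38 ± 0.22 (95% confidence interval 0.85 to 1.90, adjusted p 0.0222). The call was lost without SHP099 replicate 1 (1.45, adjusted p 0.0760), replicate 2 (1.34, adjusted p 0.116) or replicate 3 (1.35, adjusted p 0.0774) and with median-of-ratios scaling (1.24, adjusted p 0.0575). Csf3r was at 55.3, 54.4 and 71.3 FPKM, with replicate 3 within the wild-type range of 64.4 to 94.2 FPKM (-0.38 ± 0.16, adjusted p 0.194).

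In SHP099 against wild type 4 of the 8 members were called, beside 797 of 11450 genes (6.96%). Of the members 1 was higher, beside 521 of all genes (4.55%), and 3 were lower, beside 276 (2.41%). With median-of-ratios scaling, which moved the median of all genes from 0.13 to -0.00018, 575 genes were called, 200 higher and 375 lower, among them Csf2 (-2.66), Csf2rb (-1.41) and Csf2rb2 (-0.98). The count over all genes was 284, 399 and 1273 without wild-type replicates 1, 2 and 3, and 90, 47 and 116 without SHP099 replicates 1, 2 and 3. With all genes above 0 in any library tested, 26663 in number, 74 genes and no member were called by limma, the 4 members then having adjusted p of 0.0581 to 0.0979. At the study's cut-offs no member was called by limma, beside 19 of all genes (0.166%). By contrast, 4 members had an unadjusted limma p under 0.05, beside 3061 of 11450 genes. Voom called 4 members at 0.05, beside 776 of 11353 genes. Libraries did not overlap for 1 member that was higher, beside 27.9% of all genes, and for 3 that were lower, beside 6.77%. The median of the 8 members was -0.56.

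**Figure D2:**
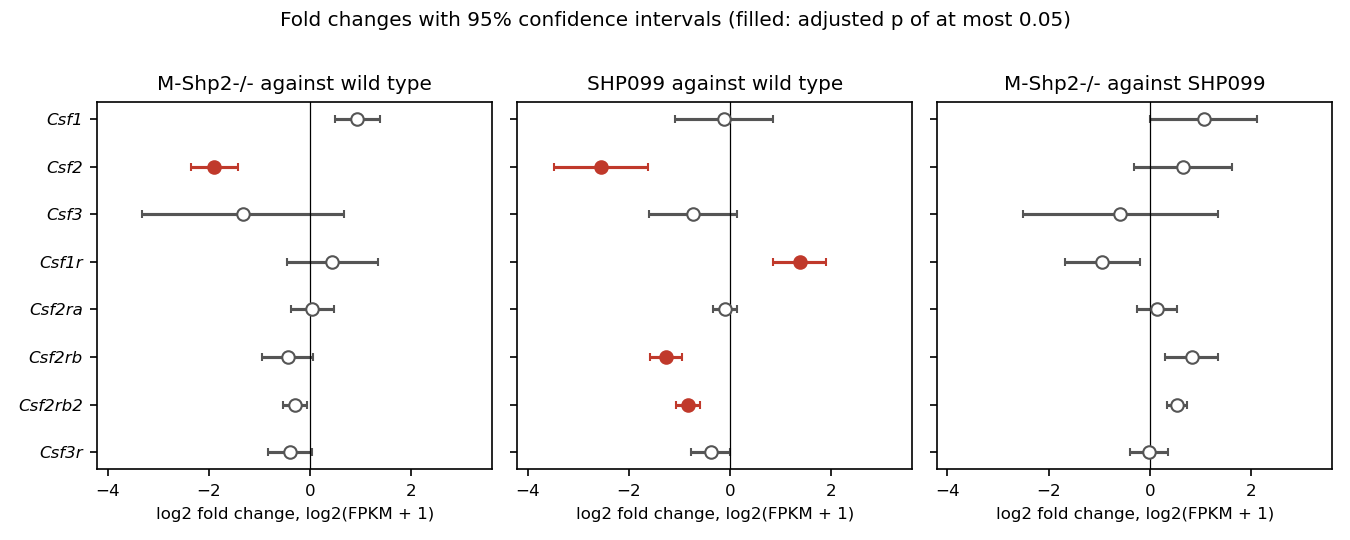
Log2 fold changes of the 8 genes (vertical axis) on the log2(FPKM + 1) scale (horizontal axis) with 95% confidence intervals in the 3 comparisons, filled where the limma adjusted p was at most 0.05. Csf2 was called against wild type in M-Shp2-/- (-1.89) and SHP099 (-2.54), and Csf1r (1.38), Csf2rb (-1.26) and Csf2rb2 (-0.84) in SHP099 against wild type.

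M-Shp2-/- against SHP099 sets loss of the gene beside inhibition of the protein. Csf2 was low in both groups, Csf1r was lower and both beta chain genes were higher in every M-Shp2-/- library than in every SHP099 library, and no member passed the test with all libraries. Without M-Shp2-/- replicate 3, 5 members did, beside 2277 of all 11450 genes (19.9%). Both groups were compared with the same wild-type libraries above, so their changes against wild type are not independent, and only the direct fit tests their difference.

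The log2 fold changes against wild type were -1.89 in M-Shp2-/- and -2.54 in SHP099 for Csf2, and the direct difference was 0.66 ± 0.41 (95% confidence interval -0.31 to 1.62, adjusted p 0.533). For Csf2rb they were -0.44 and -1.26, with a direct difference of 0.82 ± 0.22 (adjusted p 0.279), and for Csf2rb2 -0.30 and -0.84, with 0.54 ± 0.09 (unadjusted p 0.00048, adjusted p 0.138 by limma). For Csf1r they were 0.44 and 1.38, with a direct difference of -0.94 ± 0.31 (adjusted p 0.343). M-Shp2-/- replicate 3 was the library nearest to the SHP099 group for Csf1r, Csf2rb and Csf2rb2. Without it the direct differences were -1.32 for Csf1r (adjusted p 0.00200), 1.06 for Csf2rb (adjusted p 0.00460), 0.56 for Csf2rb2 (adjusted p 0.00907), -1.55 for Csf3 (adjusted p 0.0346) and 0.33 for Csf2ra (adjusted p 0.0392). For Csf1, where every M-Shp2-/- library was above 2 of the 3 SHP099 libraries, the difference was 1.06 ± 0.45 (adjusted p 0.397), and Csf3r differed by -0.02 ± 0.16.

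By limma 0 of the 8 members were called in M-Shp2-/- against SHP099, beside 8 of 11450 genes (0.0699%), with 3 members at an unadjusted p under 0.05 and 0 called by voom. Of the genes called over all tested, 3 were higher and 5 lower, and with median-of-ratios scaling 5 were higher and 2 lower. Of the members 5 were higher and 3 lower, called or not. Left out one at a time, M-Shp2-/- replicates 1, 2 and 3 gave 0, 2 and 2277 genes, and each SHP099 library gave 0. At the study's cut-offs neither a member nor any other gene was called (0%), whereas 1437 genes had an unadjusted p under 0.05. Libraries did not overlap for 2 members that were higher, Csf2rb and Csf2rb2, beside 7.90% of all genes, and for 1 that was lower, Csf1r, beside 9.76%. The median of the members was 0.34 and that of all genes 0.02.

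Of 11 genes for related ligands and receptors, 6 were tested and 5 were below the filter: Il34, which encodes the other ligand of CSF1R, Il3 and Il5, which encode the other ligands that use Csf2rb, and the receptor genes Il5ra and Flt3, with no value above 0.335 FPKM. Il3, the neighbour of Csf2 on chromosome 11, had reads in 2 of 9 libraries. Il3ra, the IL-3 receptor alpha chain, was at 61.9, 63.2 and 55.2 FPKM in wild type, 76.2, 79.0 and 52.4 in M-Shp2-/- and 52.0, 52.9 and 55.6 in SHP099. None of the 6 related genes tested was called by limma or voom with all libraries. Those with an unadjusted limma p under 0.05 were 1 in M-Shp2-/- and 2 in SHP099, each against wild type, and 0 between those groups. The counts over all 11450 genes were 1204, 3061 and 1437. Without M-Shp2-/- replicate 3, 2 of the 6 related genes were called between M-Shp2-/- and SHP099, beside 19.9% of all genes. Pdgfra, a related receptor tyrosine kinase and also a fibroblast marker, ranged from 3.70 to 39.2 FPKM and was highest in M-Shp2-/- replicate 3.

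A further list held genes that GM-CSF, M-CSF and G-CSF receptors are known to induce as feedback inhibitors or targets. The study had reported lower Cish and Osm with SHP099, and the list was chosen with earlier results of these data known. In SHP099 against wild type 5 of its 14 tested genes were called, all of them lower (beside 2.41% of all genes), 9 did not pass the test, and the median log2 fold change was -1.15, beside 0.13 for all genes. Cish, a STAT5-induced inhibitor of cytokine receptors, was at 16.5, 11.3 and 13.1 FPKM in wild type, 4.80, 5.51 and 1.88 in M-Shp2-/- and 2.36, 0.873 and 2.31 in SHP099. It fell by 2.39 ± 0.26 on the log2 scale with SHP099 (adjusted p 0.00846). Socs3, a STAT3-induced inhibitor, was at 888, 1009.9 and 1517 FPKM in wild type, 488, 443 and 434 in M-Shp2-/- and 368, 315 and 450.2 in SHP099 (-1.57 ± 0.22 with SHP099, adjusted p 0.0157). Ccnd2, a STAT5-induced cyclin, was at 18.7, 14.9 and 19.9 FPKM in wild type, 11.1, 11.7 and 7.90 in M-Shp2-/- and 6.28, 4.70 and 6.82 in SHP099 (-1.45 ± 0.16 with SHP099, adjusted p 0.00911). For these 3 genes neither the M-Shp2-/- nor the SHP099 libraries overlapped wild type. Osm, a cytokine induced through STAT5, and Irf4, a transcription factor linked to GM-CSF, were called as well (-1.46 and -0.84, adjusted p 0.0176 and 0.0490), the latter at 1.82 FPKM or less in wild type. With a library left out, Cish and Ccnd2 were called in 6 of 6 fits, Osm in 5, Socs3 in 4 and Irf4 in 1. Ccl17 and Ccl22, chemokines linked to GM-CSF, were lower with SHP099 without passing the limma test (-1.47 and -1.63, adjusted p 0.0658 and 0.0608). Voom on recovered reads called Ccl17 and not Ccl22, as did limma with a pseudocount of 0.1.

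In M-Shp2-/- against wild type no gene of this list was called by limma or voom, while 6 of 14 had an unadjusted p under 0.05, beside 1204 of 11450 genes, and 6 were lower without overlap, beside 3.07% of all genes. Cish, Socs3 and Ccnd2 had log2 fold changes of -1.60, -1.28 and -0.75 (adjusted p 0.388, 0.204 and 0.412). The list's median was -0.19, beside 0.15 for all genes, and 8 of 14 genes were lower. In M-Shp2-/- against SHP099 none was called by limma or voom, with 6 of 14 at an unadjusted p under 0.05, beside 1437 of 11450 genes, a median of 0.67 and 12 genes higher in M-Shp2-/-. Without M-Shp2-/- replicate 3, 7 of the 14 were called in that comparison, among them Cish and Ccnd2, beside 19.9% of all genes.

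**Figure D3:**
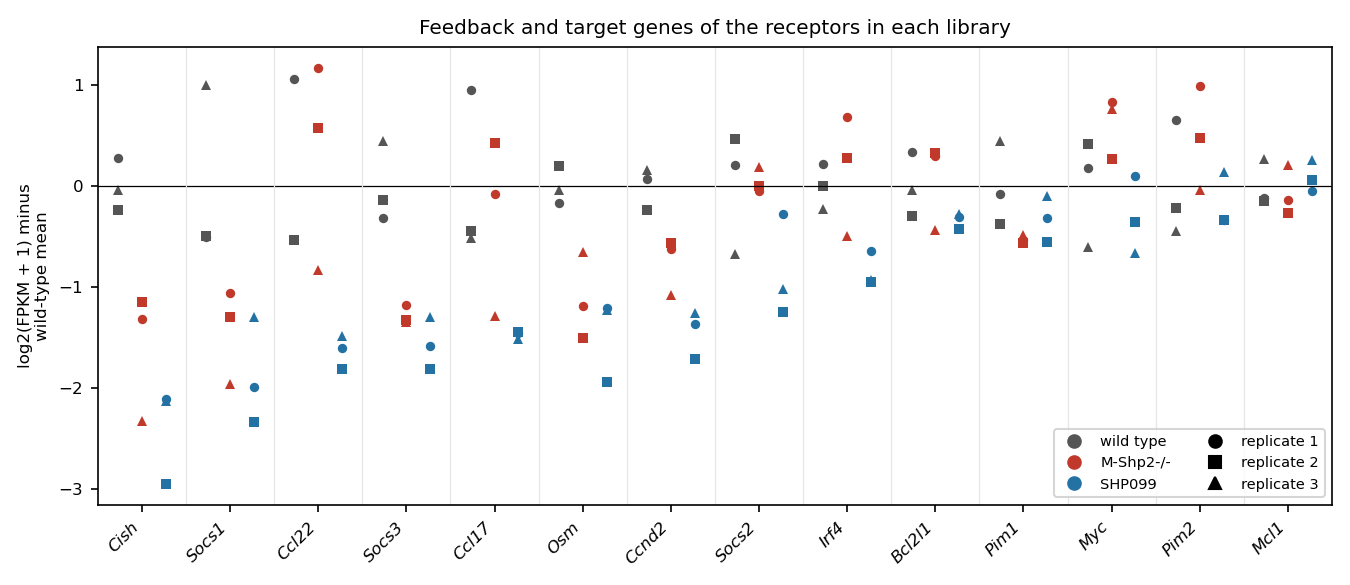
Difference of log2(FPKM + 1) from the wild-type mean (vertical axis) for the 14 tested feedback and target genes (horizontal axis, ordered by the SHP099 mean) in each library, with groups by colour and replicates by symbol. The SHP099 libraries of Cish, Socs3 and Ccnd2 lay below all wild-type libraries, and Mcl1 was the gene with a positive fold change (0.09).

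Of the kinases, adaptors and STAT factors directly downstream of the receptors, 4 of 24 tested genes (16.7%) were called in SHP099 against wild type, beside 6.96% of all genes, 3 lower and 1 higher, with a list median of -0.05. Jak2, the kinase bound to Csf2rb, was at 135, 176 and 142 FPKM in wild type and 91.0, 96.7 and 115 in SHP099 (-0.57 ± 0.13, adjusted p 0.0485), and at 107, 103 and 116 in M-Shp2-/-. Stat5a, the factor that carries the GM-CSF signal, was at 70.9, 38.6 and 43.7 FPKM in wild type and 25.9, 26.4 and 24.4 in SHP099 (-0.92 ± 0.21, adjusted p 0.0477), and at 49.8, 66.0 and 22.9 in M-Shp2-/-. The SHP099 libraries of both genes were below every wild-type library. Lyn, a Src-family kinase, was also lower (-0.46, adjusted p 0.0385) and Pik3r1, a regulatory subunit of PI3-kinase, higher (0.45, adjusted p 0.0323). With 1 library left out at a time, the calls held in 0 of 6 fits for Jak2 (adjusted p 0.0519 to 0.192), 3 of 6 for Stat5a, and 1 of 6 each for Lyn and Pik3r1. In M-Shp2-/- against wild type 1 of 24 was called, the targeted gene Ptpn11 itself (-1.19 ± 0.10, adjusted p 0.0168), a call that was lost without wild-type replicate 1 or 2 or M-Shp2-/- replicate 1 or 2 (log2 fold changes of -1.24 to -1.15, adjusted p up to 0.196). Its list median was 0.00, and in M-Shp2-/- against SHP099 it was 0.04, with Ptpn11 again the 1 gene called (-1.13, adjusted p 0.0109). Against SHP099, 10 of the 24 were called without M-Shp2-/- replicate 3, beside 19.9% of all genes.

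Of the transcription factors known to act on the receptor genes, 2 of 12 tested (16.7%) were called in SHP099 against wild type, beside 6.96% of all genes: Ets2 rose (0.53 ± 0.08, adjusted p 0.0207), from 334, 354 and 379 FPKM to 503, 499 and 543 FPKM, and Egr1 fell (-0.97 ± 0.22, adjusted p 0.0475), from 3.50, 5.12 and 5.00 FPKM to 2.03, 1.14 and 2.41 FPKM. With 1 library left out, Ets2 was called in 2 of 6 fits and Egr1 in 0 of 6 (adjusted p 0.0686 to 0.168). The list median was -0.15. Spi1, which encodes PU.1, a factor that Csf1r, Csf2ra and Csf3r need, was at 680.5 to 889 FPKM in wild type and 703 to 809 FPKM in SHP099 (-0.09 ± 0.12, adjusted p 0.672). In the comparisons that include M-Shp2-/- none of the 12 was called by limma or voom, with 2 at an unadjusted limma p under 0.05 in each. Over all 11450 genes, 1204 were under 0.05 against wild type and 1437 against SHP099. Against SHP099, 2 of the 12, Cebpa and Ets2, were called without M-Shp2-/- replicate 3, beside 19.9% of all genes.

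Of the NF-kB, AP-1 and NFAT factors known to act on the Csf2 and Csf3 genes, 4 of 16 tested were called in SHP099 against wild type, beside 6.96% of all genes, 3 lower and 1 higher, with a list median of -0.08. Nfkb2, which encodes an NF-kB subunit, was at 276, 247 and 272 FPKM in wild type and 169.9, 175 and 178 in SHP099 (-0.60 ± 0.08, adjusted p 0.0131), and at 207, 206 and 193 in M-Shp2-/-, each group apart from wild type. Fos, an AP-1 subunit, was at 9.29, 9.13 and 2.73 FPKM in wild type and 1.19, 1.17 and 1.32 in SHP099 (-1.71 ± 0.38, adjusted p 0.0445), with wild-type replicate 3 nearest to the SHP099 libraries. Fosl2 was lower (-0.71, adjusted p 0.0418) and Jun higher (0.44, adjusted p 0.0438). Of the 6 fits with a library left out, Nfkb2 was called in 3, Fos and Jun in 1 each, and Fosl2 in 0 (adjusted p 0.0609 to 0.1601). In M-Shp2-/- against wild type no gene of the list was called by limma or voom. There 5 of 16 had an unadjusted limma p under 0.05, beside 1204 of 11450 genes. In M-Shp2-/- against SHP099 Fos was called (1.56 ± 0.13, adjusted p 0.0163). Without M-Shp2-/- replicate 3, 5 of the 16 were called in that comparison, Fos among them, beside 19.9% of all genes.

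Of 10 genes for proteins that bind AU-rich or stem-loop elements of cytokine mRNA, 2 were called in SHP099 against wild type, beside 6.96% of all genes. Zc3h12a, which encodes the endonuclease Regnase-1, was at 223, 215 and 243 FPKM in wild type and 145, 141 and 169 in SHP099 (-0.58 ± 0.10, adjusted p 0.0228). Its relative Zc3h12c was at 35.0, 27.4 and 36.0 FPKM in wild type and 44.96, 52.5 and 51.7 in SHP099 (0.59 ± 0.13, adjusted p 0.0400). The groups did not overlap for either, and with a library left out the calls held in 3 of 6 and 1 of 6 fits. The list median was -0.02, and in the comparisons that include M-Shp2-/- no gene of the list was called by limma or voom. At an unadjusted limma p under 0.05 were 3 of 10 against wild type and 1 against SHP099, beside 1204 and 1437 of 11450 genes.

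Of the 17 genes outside the members that were called in SHP099 against wild type, 11 were called with median-of-ratios scaling, 1 with all genes above 0 tested, 8 with eBayes without trend, 11 with the fibroblast score as a covariate, and 6, 8 and 14 without wild-type replicates 1, 2 and 3. The 4 calls among the kinases, adaptors and STAT factors were all lost with eBayes without trend, and 3 of them with the fibroblast score. Without SHP099 replicates 1, 2 and 3 the calls left were 3, 3 and 4. Both calls in M-Shp2-/- against SHP099 held without M-Shp2-/- replicate 3 and were lost without any 1 of the other 5 libraries. In M-Shp2-/- against wild type the list medians were 0.15 for the related genes, 0.01 for the factors of the receptor genes, -0.17 for those of the ligand genes and 0.04 for the mRNA decay genes, and between M-Shp2-/- and SHP099 they were 0.29, 0.04, -0.04 and 0.08. With SHP099 the related genes had a median of -0.01.

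The genes whose values over the 9 libraries were most like those of a member were sought among all genes tested, by Pearson's r of log2(FPKM + 1). The r are descriptions over libraries that share groups, depth and cell makeup. For Csf2 they were Itga1, an integrin subunit (r = 0.97, means of 4.34, 2.28 and 1.48 FPKM in wild type, M-Shp2-/- and SHP099), Sptlc2, an enzyme of sphingolipid synthesis (0.97), and Ccl2, a monocyte chemoattractant (0.96, means of 1018, 363 and 200.4 FPKM). Csf2rb was most like Olr1, a scavenger receptor, Clec7a, the beta-glucan receptor Dectin-1, and Bcar3 (0.99 each), with Clec7a at means of 364, 220 and 97.6 FPKM. Csf2rb2 was most like Frmd4a (0.98), Aqp9 (0.97) and Psd4 (0.97), and Csf1r most like Mocs1, Clk1 and Brd1 (0.99 each). The genes most like the remaining members were AU040320, Fdxr and Slc38a10 for Csf1 (0.91 to 0.92), St8sia4, Acvr1b and Itga9 for Csf3 (0.96 to 0.97), Znhit1, Gna15 and Unk for Csf2ra (0.94 to 0.96), and Rapgef2, Ptbp3 and Plagl2 for Csf3r (0.94 to 0.98). Between members, r was 0.91 for Csf2rb with Csf2rb2, 0.85 for Csf2 with Csf2rb, 0.86 for Csf2 with Csf2rb2 and -0.96 for Csf1r with Csf2rb.

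Fibroblast marker RNA varied between libraries, in the same order as Csf1 or Csf3 in some groups and in another order in the rest. Its part in the results was not tested beyond a fit with the fibroblast score as a covariate. In the SHP099 group Csf1 and the summed fibroblast markers had the same order of libraries, 37.5, 17.0 and 9.77 FPKM beside 361, 137 and 101 FPKM. Csf1 had another order than the marker sums in wild type, at 21.6, 21.3 and 18.1 FPKM beside 63.8, 303 and 39.8 FPKM, and in M-Shp2-/-, at 50.04, 30.4 and 41.2 FPKM beside 135, 51.4 and 586 FPKM. In M-Shp2-/-, Csf3 had the order of the sums, at 118, 21.9 and 10.3 FPKM beside 586, 135 and 51.4 FPKM. In wild type it was at 44.6, 106 and 98.0 FPKM beside 63.8, 303 and 39.8 FPKM. There replicate 2 was highest in both, whereas replicate 3, lowest in the sums, was above replicate 1 in Csf3. In SHP099, Csf3 was at 42.4, 34.0 and 68.3 FPKM beside the sums of 361, 137 and 101 FPKM, in another order. Csf1r was at 176 FPKM in the M-Shp2-/- library with the highest marker sum, and at 206 and 211 FPKM in SHP099 libraries with sums of 101 and 137 FPKM. With the score in the fit, a choice made after the values were seen, the log2 fold changes with SHP099 were -2.58 for Csf2, 1.47 for Csf1r, -1.30 for Csf2rb and -0.86 for Csf2rb2 (adjusted p 0.0209, 0.0156, 0.00718 and 0.0107), and Csf2 in M-Shp2-/- was at -1.79 (adjusted p 0.0376).

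**Figure D4:**
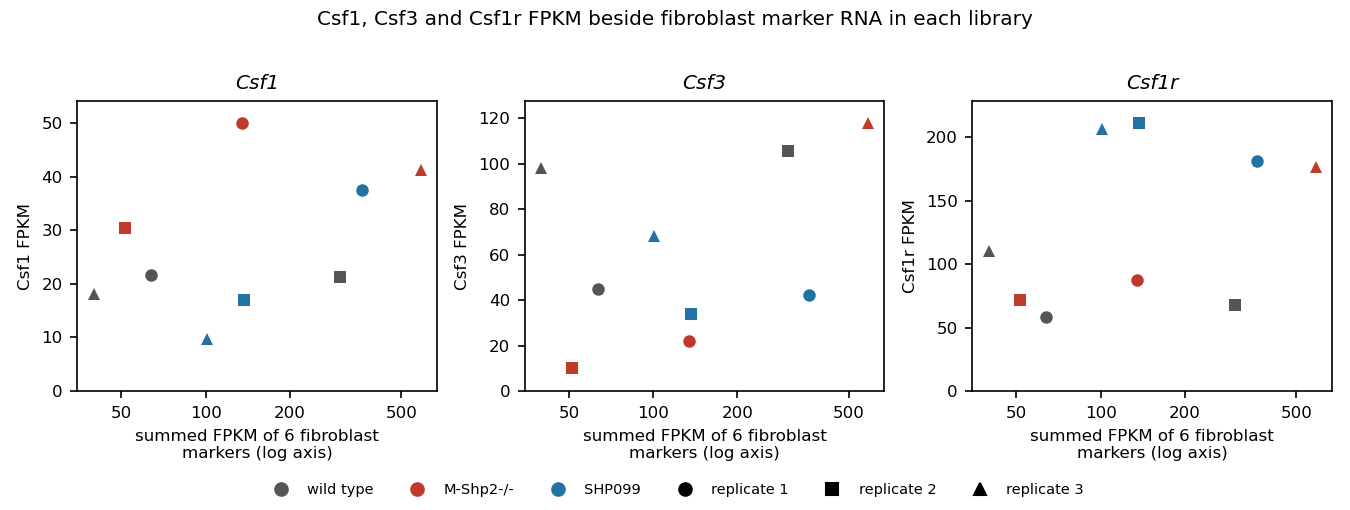
FPKM of Csf1, Csf3 and Csf1r (vertical axes, linear) against the summed FPKM of 6 fibroblast markers (horizontal axis, log scale) in each of the 9 libraries, with groups by colour and replicates by symbol. M-Shp2-/- replicate 3 was farthest right at 586 FPKM and had the highest Csf3 (118 FPKM), and the SHP099 libraries had the highest Csf1r (181 to 211 FPKM).

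Other cell types were followed by their markers. Of the 5 monocyte markers Chil3 was the most abundant, and the sum was 109.6, 228 and 149 FPKM in wild type, 53.4, 93.2 and 128 in M-Shp2-/- and 61.7, 61.3 and 64.9 in SHP099. Chil3 itself was called lower in SHP099 against wild type (-1.32 ± 0.25, adjusted p 0.0322), with every SHP099 library below every wild-type library, and so was the endothelial marker Kdr (-1.08 ± 0.23, adjusted p 0.0406). Other settings were not run for the markers. The sum of 9 neutrophil markers was 46.0 to 104 FPKM in wild type, 49.2 to 108 in M-Shp2-/- and 57.3 to 81.1 in SHP099. The 5 markers of resident peritoneal macrophages, led by Icam2, summed to 5.38 to 12.2 FPKM over the 9 libraries. The lists of 5 eosinophil, 5 mast cell and 5 dendritic cell markers were led by Siglecf, Tpsb2 and Zbtb46. Eosinophil markers summed to 0.383 to 0.930 FPKM in wild type, 0.280 to 0.727 in M-Shp2-/- and 0.0186 to 0.0368 in SHP099. For mast cells the sums were 1.59 to 4.82, 0.252 to 1.43 and 0.279 to 0.614 FPKM, and for dendritic cells 0.809 to 1.28, 1.33 to 1.83 and 0.619 to 0.784 FPKM. For each of these lists every SHP099 sum was below every wild-type sum, and Ear1 and Fcer1a were at 0 throughout. T cell markers, led by Lck, summed to 2.01, 3.26 and 6.89 FPKM in wild type, 2.01, 1.67 and 4.40 in M-Shp2-/- and 7.12, 5.38 and 5.10 in SHP099. Endothelial markers, led by Kdr, summed to 1.35 to 5.51 FPKM and were lowest in SHP099, and mesothelial markers, led by Wt1, summed to 1.42 to 8.97 FPKM and were highest in M-Shp2-/- replicate 3. The part of these cells in the members' values was not tested.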

How the data were processed

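By the submitters' notes, reads were aligned with HISAT2 2.0.4 and counted with HTSeq 0.9.1, and the authors deposited FPKM for 54059 genes in each library. The genome build, annotation, strand and FPKM tool are not given in the sources used here. Symbols and positions came from GENCODE M21 (GRCm38), and promoters from RefSeq. Depth came from the step between FPKM values times transcript length, and 96.3% to 96.7% of values of up to 50 reads were then whole (tolerance 0.05).

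Groups were compared with limma 3.58.1 (lmFit, eBayes with trend) in R 4.3.3 on log2(FPKM + 1), two-sided, on the 6 libraries of each comparison and the 11450 genes whose mean over all 9 was 1 FPKM or more, with Benjamini-Hochberg adjustment. The members and lists were chosen with earlier results of these data known. Besides the members and Ptpn11, the rule named each list's called genes (and its most abundant ones to make 2), the 3 genes most alike each member, and each marker list's most abundant gene and those near 0. Chosen after their values were seen were Cd68, Adgre1, Ccl17, Ccl22, Mcl1, Spi1, Cebpa, Mmp8, Camp, S100a9, the 5 untested related genes and the genes overlapping Csf2 and Csf1r. Alternatives were pseudocounts of 0.1 and 5, no filter, a mean of at least 5 FPKM, 2 scalings, eBayes without trend, all 9 libraries in a fit, the replicate block, the study's cut-offs, voom on recovered reads, leave-one-out fits and, added after seeing the data, a fibroblast covariate. Figures used Python 3.11.15 and matplotlib 3.10.9, and tables and sequences numpy 2.4.6, pandas 2.3.3 and biopython 1.88.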

Additional observations from a re-analysis of the deposited data

How the results depend on the processing

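The count of members called in M-Shp2-/- against wild type, 1 with the settings of the report, was 0 with pseudocounts of 0.1 or 5, no filter on low FPKM, all 9 libraries in a fit, the replicate block, the study's cut-offs, voom on recovered reads and, under eBayes without trend, also 0. It was 0 with each library left out in turn, lowest and highest alike. The log2 fold change of Csf2 was negative under each alternative run, -2.26 to -1.17, and the cause of the lost calls was not tested. In SHP099 against wild type the count was 4, and 0 without a filter, where more genes are tested, and 0 at the study's cut-offs. It was 1 to 4 with a library left out. In M-Shp2-/- against SHP099 it was 0, and 0 to 5 with a library left out.

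The replicate number as a replicate block gave 0, 4 and 0 members in the 3 comparisons and 2, 591 and 0 genes of all tested. It kept 9 of the 17 calls in the lists with SHP099, and 0 of the 4 among kinases, adaptors and STAT factors. Deviations of same-numbered libraries from their group means correlated at -0.43 to 0.49, with both signs, so the numbers were not taken to pair the samples.

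Signs turned for Csf2ra in M-Shp2-/- against wild type with median-of-ratios scaling (-0.11) and without M-Shp2-/- replicates 1 and 2 (-0.0528 and -0.04; 0.24 without replicate 3), for Csf1 in SHP099 against wild type without SHP099 replicate 3 (0.31; -0.61 without replicate 1), and in M-Shp2-/- against SHP099 for Csf3 without M-Shp2-/- replicate 2 (0.15; -1.55 without replicate 3) and for Csf3r without M-Shp2-/- replicates 1 and 2 (0.08 and 0.02; -0.15 without replicate 3) or SHP099 replicate 3 (0.11). The cause was not tested. Of 414 fold changes of members under alternatives, 375 kept direction and side of the threshold.

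Counts over all genes that differed by more than 1.5 times were 2 (replicate block), 6 (no trend) and 1 (study's cut-offs) against 10 in M-Shp2-/- against wild type, 74 (no filter) and 19 (study's cut-offs) against 797 in SHP099 against wild type, and 3 (no filter and all 9 libraries), 17 (mean of at least 5 FPKM), 0 (replicate block and study's cut-offs), 14 (voom) and 61 (fibroblast covariate) against 8 in M-Shp2-/- against SHP099. Depth limited Csf2 most, at 7 reads in SHP099 replicate 2.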
